A study of Mus musculus with 2 samples.

Results

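The cells described here are the non-tip, non-cycling blood endothelial cells of VEGF-C-expressing melanomas: 170 cell barcodes, 83 from the Cre plus library and 87 from the Cre minus library, of 3334 barcodes that passed the filter. They were chosen from their own transcripts. A barcode needed at least 5 UMIs (unique molecular identifiers, each standing for 1 captured RNA molecule) over the blood endothelial genes Flt1, Plvap, Emcn, Gpihbp1 and Cd34, and at least 2 times the sum of a lymphatic, melanoma, macrophage or stromal panel. It also needed fewer than 3 detected genes among 6 cycling genes (Mki67, Top2a, Cenpf, Birc5, Cdk1, Ube2c). The 340 barcodes that met these conditions were split at the joint median, 0.220%, of their UMI share of the tip cell genes Esm1, Apln, Angpt2 and Kcne3, and the cells at or below it are the members. The other 170, 72 in Cre plus and 98 in Cre minus, are called tip-like below.

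The study compared skin tumors of B16F10-OVALBUMIN/VEGFC, a C57BL/6 mouse melanoma line that carries VEGF-C, a lymphatic growth factor, and the model antigen ovalbumin. Per genotype, 500K cells were placed in the skin and tumors were taken on day 15. From 3 pooled tumors per genotype, live cells with CD31 and without CD45 were sorted into 1 single-cell 3′ library. The Cre plus mice have the genotype Ifngr1iProx1 and the Cre minus mice Ifngr1WT. The name puts the loss of Ifngr1, which codes for the receptor chain that binds interferon-γ, under a Cre driven by Prox1, the transcription factor of lymphatic identity, and the labels used here give neither the floxed allele, an inducing agent nor the age or sex of the mice. Both genotypes carried the same tumor line and went through the same digestion and sort. With 1 library per genotype there is no replicate and no test: animal, tumor, sort and library cannot be told apart from genotype, and every 95% interval below, in square brackets, covers counting error only.

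Blood endothelium lines the arteries, capillaries and veins that feed a tumor. In a sprouting vessel, tip cells lead and answer VEGF-A, while the cells behind them form the lumen and take arterial, capillary or venous character. Endothelial cells carry the interferon-γ receptor, and its signal, through JAK kinases, induces GTPases that defend the cell interior, MHC class I and II antigen presentation, T cell attracting chemokines and leukocyte adhesion molecules. Short sequence elements known as GAS and ISRE occur in the promoters of many such genes.

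Promoters of 5 interferon-induced genes that were higher in the Cre plus members are shown for these 2 kinds of element. Each is the 150 bases before a RefSeq transcript start on GRCm38.p6 (mm10), read along the gene's strand. Capitals mark matches, on either strand, to GAAA and GAAA with any 2 bases between them (ISRE-like) or TTCNNNGAA (GAS-like). Igtp, at chr11:58199406-58199555 on the plus strand, holds a match to each. Gbp2, at chr3:142620513-142620662, plus strand, holds 1 ISRE-like match, and Gbp3, at chr3:142559894-142560043, plus strand, holds 2 that overlap. B2m, at chr2:122147537-122147686, plus strand, holds 1 ISRE-like match, and Irf1, at chr11:53769864-53770013, plus strand, 1 GAS-like match.
Igtp: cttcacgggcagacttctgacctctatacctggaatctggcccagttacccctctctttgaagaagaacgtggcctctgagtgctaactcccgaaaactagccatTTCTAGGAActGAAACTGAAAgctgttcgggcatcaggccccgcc
Gbp2: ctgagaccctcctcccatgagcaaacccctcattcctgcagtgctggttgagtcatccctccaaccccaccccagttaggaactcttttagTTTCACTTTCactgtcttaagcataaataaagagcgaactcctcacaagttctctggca
Gbp3: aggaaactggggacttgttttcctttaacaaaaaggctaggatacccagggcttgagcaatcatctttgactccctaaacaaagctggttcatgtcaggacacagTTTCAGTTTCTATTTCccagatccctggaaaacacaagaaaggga
B2m: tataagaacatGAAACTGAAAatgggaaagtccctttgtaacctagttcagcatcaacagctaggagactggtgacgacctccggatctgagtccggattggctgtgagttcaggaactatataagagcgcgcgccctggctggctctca
Irf1: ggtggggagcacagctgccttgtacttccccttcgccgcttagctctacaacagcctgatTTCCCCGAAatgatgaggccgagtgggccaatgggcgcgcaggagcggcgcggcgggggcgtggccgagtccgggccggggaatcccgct
In the 250 bases before the start, 2.98% of all 32851 RefSeq mouse promoter windows held an ISRE-like match and 7.02% a GAS-like match. Of the 15 interferon GTPase genes measured in the members, 9 had a promoter in the RefSeq table, of which 8 held an ISRE-like and 5 a GAS-like match. Of 21 MHC class I presentation genes, 19 were in the table, with 3 and 1. A match is a string of letters and was not tested as a binding site, and the 150-base windows of H2-K1, H2-D1, Cxcl9, Psmb9 and Tap1, and those at a second start of Gbp3 and of Irf1, held neither string.

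The label was checked against genes that the rule had not used. All 170 members had UMIs of the set of 12 pan-endothelial genes with Cdh5, Pecam1 and Egfl7, with a median of 99 UMIs per Cre plus member and 70 per Cre minus member. At least 3 UMIs of 12 further blood endothelial genes (among them Kdr, Ptprb, Aqp1 and Cd300lg) were found in 77 of 83 and 74 of 87 members. The 9 lymphatic genes beyond the rule, among them Pdpn, Reln and Nts, had no UMI in 66 and 75 members. The 5 genes of the rule itself had summed levels of 7338 CPM in Cre plus (UMIs per 1000000 UMIs of the members), against 7963 CPM in Cre minus. Flt1, a decoy receptor for VEGF-A, had 2401 and 2835 UMIs, Plvap, the protein of fenestral diaphragms, 2537 and 1338, Emcn 1512 and 1417, Gpihbp1, which anchors lipoprotein lipase in capillaries, 1982 and 1332, and Cd34 1065 and 828.

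The panels of other cells were kept low by the rule itself, so their sums describe what was left and check nothing. The melanoma panel (Dct, Pmel, Mlana, Tyrp1) summed to 44.0 CPM in Cre plus, against 112 CPM in Cre minus, and the macrophage panel to 2.32 and 13.4 CPM. The stromal panel summed to 2.32 and 8.22 CPM. Of 10 macrophage markers outside the rule, 4 had no UMI in each library, among them Csf1r, Adgre1 and Aif1, and the whole list summed to 257 UMIs in Cre plus members (199 CPM), against 115 UMIs (118 CPM). Most of this was Apoe, with 199 and 94 UMIs, followed by Fcer1g, with 42 and 14, so both were over 1.5-fold higher in Cre plus. Of 10 pericyte markers, 5 and 3 had no UMI, Pdgfrb, Myh11 and Higd1b in both libraries, and the list summed to 530 UMIs (410 CPM) and 690 UMIs (709 CPM). Mcam, which endothelium also carries, had 421 and 504 UMIs, and the channel genes Abcc9 and Kcnj8 71 and 138 and 32 and 34 UMIs. The lymphatic panel summed to 224 and 202 CPM, most of it Flt4, the VEGF-C receptor, which had 170 and 185 UMIs. Prox1 had 12 UMIs in Cre plus, 11 of them in 1 barcode, and 0 in Cre minus, which at a floor of 3 counts per library is at least 3.01-fold higher. One Cre plus member held 91 of the 102 Ccl21a UMIs of that library, and another was 80.4% haemoglobin. In all, 12 Cre plus and 20 Cre minus members had 5 or more UMIs of another panel, and their part in the results below was not tested beyond leaving them out. No barcode of a member was shared by both libraries.

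The members made up 4.66% [3.73, 5.74] of the barcodes that passed in Cre plus and 5.61% [4.51, 6.87] in Cre minus. Of the non-cycling blood endothelial barcodes they were 53.5% [45.4, 61.6] and 47.0% [39.7, 54.5], and these intervals overlap. Since a joint median set the split, this share describes the tip genes and is no separate result. Just inside it lay Cre minus barcodes with tip shares of 0.218%, 0.219% and 0.220%, and just outside it Cre minus barcodes with 0.221%, 0.222% and 0.222%. Within 10% of the split lay 10 members and 22 tip-like barcodes. The members still had a median of 3 (Cre plus) and 7 (Cre minus) tip gene UMIs, and 21 and 12 of them had none.

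The libraries held 2491 and 2502 barcodes with 66704257 and 76967583 UMIs, of which 1782 and 1552 barcodes passed, and 1 barcode sequence occurred in both. The members summed to 1294213 and 973203 UMIs. Their median depth was 11303 UMIs (Cre plus) and 10231 UMIs (Cre minus), with ranges of 993 to 69651 and 1834 to 40308. The mitochondrial share had a median of 2.13% and 3.66%. Malat1, a nuclear RNA whose lack marks barcodes short of nuclear RNA, reached 0.1% of UMIs in 59 and 60 members, which had median depths of 18967 and 12450 UMIs. The other members had 4208.5 and 5023. Gm42418, a gene model that overlaps ribosomal RNA sequence, took 0.958% of all Cre plus member UMIs, against 2.72% for Cre minus.

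The abundant named transcripts included Fabp4, which carries fatty acids in capillary endothelium, and several matrix genes of the vessel wall. Leaving out mitochondrial, ribosomal-protein, haemoglobin, unnamed gene models such as Gm42418 and the genes of the rule, 15 genes were taken by mean CPM of both libraries. Of these, Malat1 stood at 13040 CPM in Cre plus and 9699 in Cre minus, Tmsb4x at 8902 and 6906, and Fabp4 at 8916 and 3694. The matrix genes Sparc, with 5447 and 6270 CPM, Igfbp7, with 6209 and 4770, and Col4a1, a chain of basement membrane collagen, with 3972 and 4576, were also among the 15, as was Actb, at 5749 and 5971. Levels in these 3′ libraries count transcripts and are not corrected for length.

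Between genotypes, genes of the interferon-γ response were higher in the Cre plus members as a group, and 5 of 18 basement membrane genes, laminins among them, were over 1.5-fold lower. All 15 measured interferon GTPases, 16 of 21 MHC class I presentation genes, the chemokine Cxcl9 and the adhesion genes Vcam1, Selp and Icam1 were over 1.5-fold higher. Over the 11 measured adhesion genes, however, the median was 0.01, with 1 gene over 1.5-fold lower. Immediate-early, venous, capillary and Id genes were also higher. The venous median turned to -0.58 in barcodes thinned to 2000 UMIs, where few of its genes were measured. The capillary median fell to 0.38 among genes with at least 200 UMIs. These values lay on a broad background: of 6444 genes with at least 50 UMIs over both libraries, 879 (13.6%) were over 1.5-fold higher in Cre plus and 893 (13.9%) over 1.5-fold lower, around a median log2 ratio of -0.03. All log2 ratios between genotypes are Cre plus over Cre minus, of CPM. Without the barcode with most of each gene's UMIs, 628 genes were higher and 642 lower.

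Gene length and RNA class differed between the 2 sets. Genes higher in Cre plus had a median genomic span of 11.8 kb, those lower 75.6 kb, and the rest 32.2 kb. Of 13 mitochondrially encoded genes 11 were lower, with a median of -0.69. Of 48 ribosomal protein genes 4 were higher, with a median of 0.45 that turned to -0.34 in the members with under 0.1% Malat1. Gm42418 stood at 9576 CPM against 27231 CPM. The part of RNA quality, depth or fragment length in any of the values below was not tested beyond the alternatives given in the closing part.

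Ifngr1, the gene named in the Cre plus genotype (chr10:19591949-19610229, plus strand), had 273 UMIs in 53 of the 83 Cre plus members and 110 UMIs in 46 of the 87 Cre minus members. That is 211 CPM against 113 CPM, a log2 ratio of 0.90 [0.58, 1.23]. The ratio was 0.56 as a mean over barcodes and 0.18 in the members with under 0.1% Malat1. Members with a UMI of Ifngr1 were 26.7% and 10.6% after thinning to 2000 UMIs per barcode, against 63.9% and 52.9% unthinned. Melanoma-panel barcodes, with median depths of 18123 and 17813 UMIs, had 31.1% and 30.2% unthinned and 1.20% and 1.62% thinned. A 3′ library counts the end of the transcript. Whether that end lies in the deleted part is not given, so this value does not check the genotype. In tip-like barcodes the Ifngr1 ratio was -0.03, and in non-cycling lymphatic-panel barcodes, the cells for which the Cre is named, it was -0.69.

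The other chain and the signalling genes moved less. Of 14 measured interferon-γ signalling genes 5 were over 1.5-fold higher and none lower, with a median of 0.20. Ifngr2, the second receptor chain, was 0.64 [0.24, 1.05] higher on the log2 scale. The receptor kinases Jak1, at 0.13, and Jak2, at -0.02, were within 1.5-fold. Irf1, a transcription factor induced by interferon-γ, had 191 UMIs in 45 Cre plus members and 47 UMIs in 23 Cre minus members, a log2 ratio of 1.61 [1.14, 2.10]. Socs3, a feedback inhibitor of JAK signalling, had 49 and 4 UMIs, 3.20 [1.76, 5.14].

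The interferon-induced GTPases, which attack the vacuoles of intracellular microbes, stood together. Iigp1, of the immunity-related family, had 1122 UMIs in 49 Cre plus members and 219 UMIs in 20 Cre minus members. That is 867 CPM against 225 CPM, a log2 ratio of 1.95 [1.74, 2.16]. The ratio stayed at 1.81 without the barcode richest in Iigp1. Gbp2, a guanylate-binding protein, had 321 UMIs in 35 members and 67 UMIs in 13, of which 42 lay in 1 Cre minus barcode. Its log2 ratio was 1.85 [1.47, 2.25]. Over the 15 measured genes of 18 listed, the median was 1.07 against -0.03 for all measured genes, and single genes ran from Gvin1 at 0.69 [-0.10, 1.54] to Gbp6 at 1.97 [1.13, 2.91]. Gbp5 rested on 1 barcode: 67 of its 140 Cre plus UMIs lay there, and without that barcode its ratio was -0.02. Leaving out each gene's richest barcode kept 13 of the 15 over 1.5-fold. Gbp, Tgtp and Irgm genes are close copies, and how reads that fit several of them were counted is not given, so the split among single members is uncertain.

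**Figure D1:**
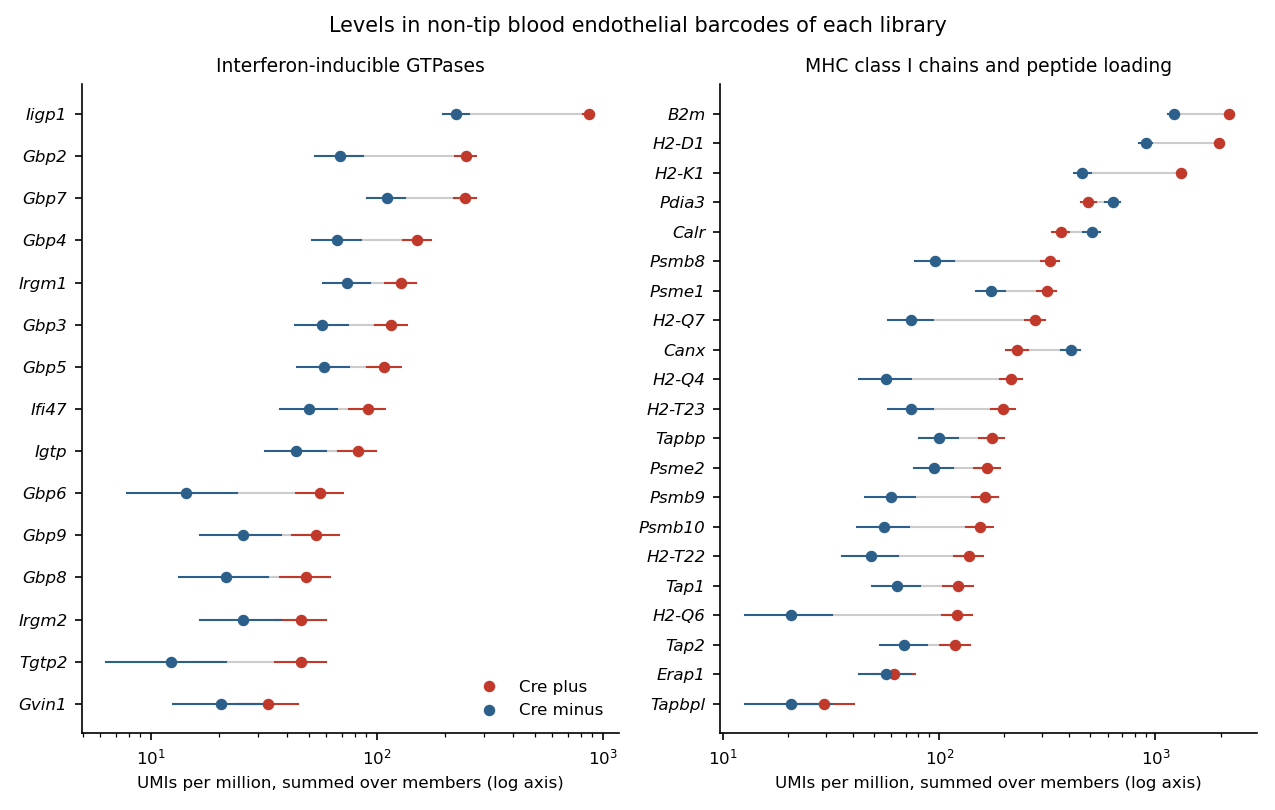
Summed levels of the 15 measured interferon GTPases and 21 MHC class I presentation genes in the non-tip members of each library, in CPM on a log axis, with exact Poisson 95% intervals that cover counting error only. All 15 GTPases lie higher in Cre plus, and in the MHC class I group Canx, Calr and Pdia3 lie higher in Cre minus.

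Per barcode, the Cre plus members held a median of 8.90 GTPase UMIs per 10000 UMIs, and the Cre minus members 2.01. These distributions overlapped: 10 Cre plus and 25 Cre minus members had none. At least 10 per 10000 were found in 38 of 83 Cre plus members, which is 45.8%, and in 12 of 87 Cre minus members, 13.8%. In tip-like barcodes the same limit was reached by 18 of 72 (25%) and 6 of 98 (6.12%). Iigp1 was detected in 59.0% [47.7, 69.7] of Cre plus and 23% [14.6, 33.2] of Cre minus members. After thinning to 2000 UMIs these shares were 38.7% and 17.6%, and in melanoma-panel barcodes, thinned alike, 2.79% and 2.66%. Of the 35 Cre plus members with Gbp2, 30 also had Iigp1 and 23 had Cxcl9. Those 35 were deeper than the rest, with a median of 26749 UMIs against 5026.

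**Figure D2:**
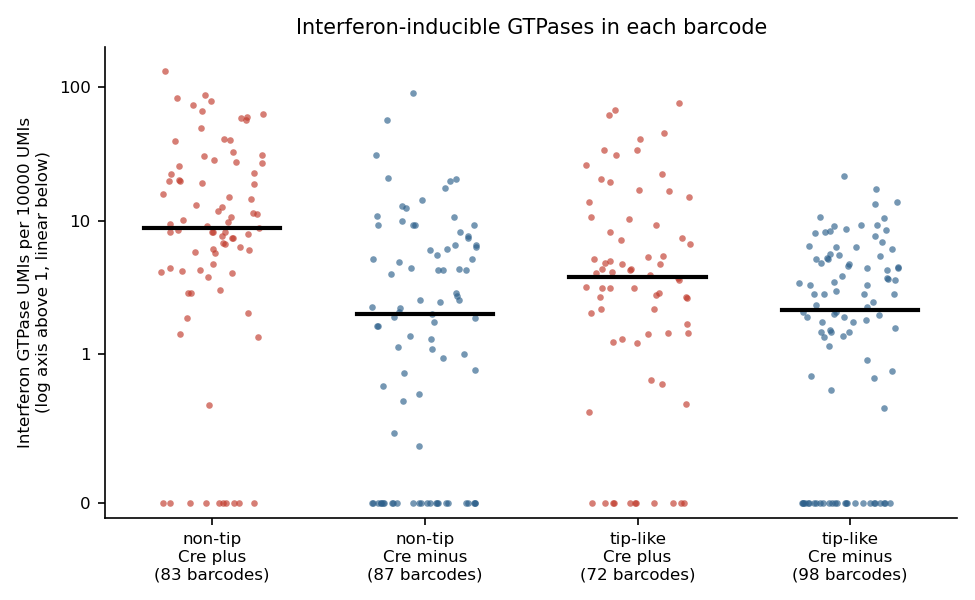
UMIs of 18 interferon GTPase genes per 10000 UMIs in each barcode (1 point per barcode), for non-tip and tip-like barcodes of each library, with a bar at the median. The non-tip Cre plus strip has a median of 8.90 and the other 3 strips lie between 2.01 and 3.82, with wide overlap.

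MHC class I genes, which load peptides and show them to CD8 T cells, had a median log2 ratio of 0.94, with 16 of 21 over 1.5-fold higher and 1 lower. B2m, the shared light chain, had 2837 Cre plus and 1184 Cre minus UMIs, 2192 CPM against 1217 CPM, a log2 ratio of 0.85 [0.75, 0.95]. H2-K1, a classical heavy chain, had 1707 and 447 UMIs, 1.52 [1.37, 1.68], and H2-D1 2549 and 878, 1.13 [1.02, 1.24]. The non-classical H2-Q6 had 157 UMIs in 37 members and 20 UMIs in 10, 2.56 [1.89, 3.31], but the H2-Q genes are near-identical copies and their split is uncertain. Psmb8, a catalytic subunit of the immunoproteasome, had 421 and 93 UMIs, 1.77 [1.44, 2.11], and the peptide transporter Tap1 158 and 62 UMIs, 0.94 [0.51, 1.39]. The general chaperones of the endoplasmic reticulum on the same list went the other way: Canx stood at -0.82 [-1.04, -0.60], Calr at -0.48 and Pdia3 at -0.38. Restricted to members with under 0.1% Malat1, the median of the list was 0.57.

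Of 24 measured type I interferon response genes, 11 were over 1.5-fold higher and none lower, with a median of 0.57. Ifi27l2a had 154 and 20 UMIs, 2.53 [1.86, 3.28], and Bst2, the tetherin that holds budding virus at the cell surface, 1440 and 566, 0.94 [0.79, 1.08]. Rsad2, the antiviral enzyme viperin, stood at -0.38 [-0.68, -0.08] and Isg15, a ubiquitin-like modifier, at 0.59.

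Cxcl9, which draws T cells through CXCR3, had 1033 UMIs in 33 Cre plus members and 89 UMIs in 14 Cre minus members. That is 798 CPM against 91.5 CPM, a log2 ratio of 3.13 [2.81, 3.45]. One Cre plus barcode held 350 of the UMIs, and without it the ratio was 2.56. Cxcl9 was detected in 39.8% and 16.1% of members (26.7% and 9.41% thinned), against 4.01% and 1.90% of melanoma-panel barcodes. Cxcl10, of the same family, had 62 and 5 UMIs, 3.22 [1.92, 4.89]. Cxcl12, which holds CXCR4-bearing cells, had 695 and 302 UMIs, 0.79 [0.59, 0.99]. Ccl2, which draws monocytes, had 112 UMIs, all in 1 barcode of 69651 UMIs, against 1 UMI, a ratio of 6.40 [3.89, 11.71] that rests on that barcode alone. The 4 measured chemokines of 10 listed had a median of 3.17, and 1.40 without each gene's richest barcode.

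The same deep barcode weighed on the adhesion genes, which let leukocytes roll on and hold to the vessel wall. Vcam1 had 125 UMIs in 14 Cre plus members, 52 of them in that barcode, and 0 UMIs in the 87 Cre minus members, at least 31.3-fold higher at the floor of 3 counts. Selp, P-selectin, had 123 UMIs in 11 Cre plus members and 2 UMIs in 1 Cre minus member, 5.53 [3.65, 8.59]. Icam1 had 251 and 14 UMIs, 3.75 [2.98, 4.64], and 1.95 without the deep barcode, which held 183. Of 11 measured adhesion genes 4 were over 1.5-fold higher and 1 lower, and the list's median was 0.01: Pecam1, Esam, Icam2, F11r and Cd47 lay between -0.29 and 0.01. Among the Cre plus members with Selp, 10 of 11 had Nr2f2 and 9 had Icam1, 1 had Gja4 and none had Hey1. Over all 83 Cre plus members, Nr2f2 was found in 26, Icam1 in 22, Gja4 in 23 and Hey1 in 27. The Selp-bearing members had a median of 21078 UMIs and the others 9607. After thinning, Selp was seen in 6.67% of Cre plus and Vcam1 in 4%, and neither in Cre minus. Icam1 was then seen in 4% [0.833, 11.2] and 2.35% [0.286, 8.24], intervals that overlap, against 26.5% and 11.5% unthinned. In melanoma-panel barcodes thinned alike, Selp was in 0.199% and 0.116%.

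MHC class II genes were rare in both libraries. Cd74, the invariant chain, had 222 UMIs in 11 Cre plus members, 119 of them in 1 barcode, and 5 UMIs in 2 Cre minus members, 5.06 [3.82, 6.70]. It was detected in 13.3% of Cre plus members (6.67% thinned), against 48.7% of melanoma-panel barcodes of the same library (17.7% thinned). Of its 222 UMIs, 207 lay in 3 barcodes, and whether they came from free RNA, other cells or these cells was not tested. H2-Ab1 had 106 and 25 UMIs, 1.67 [1.03, 2.36]. T and NK cell markers came to 1 UMI and 0 UMIs in the members, and B cell markers to 1 and 1.

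**Figure D3:**
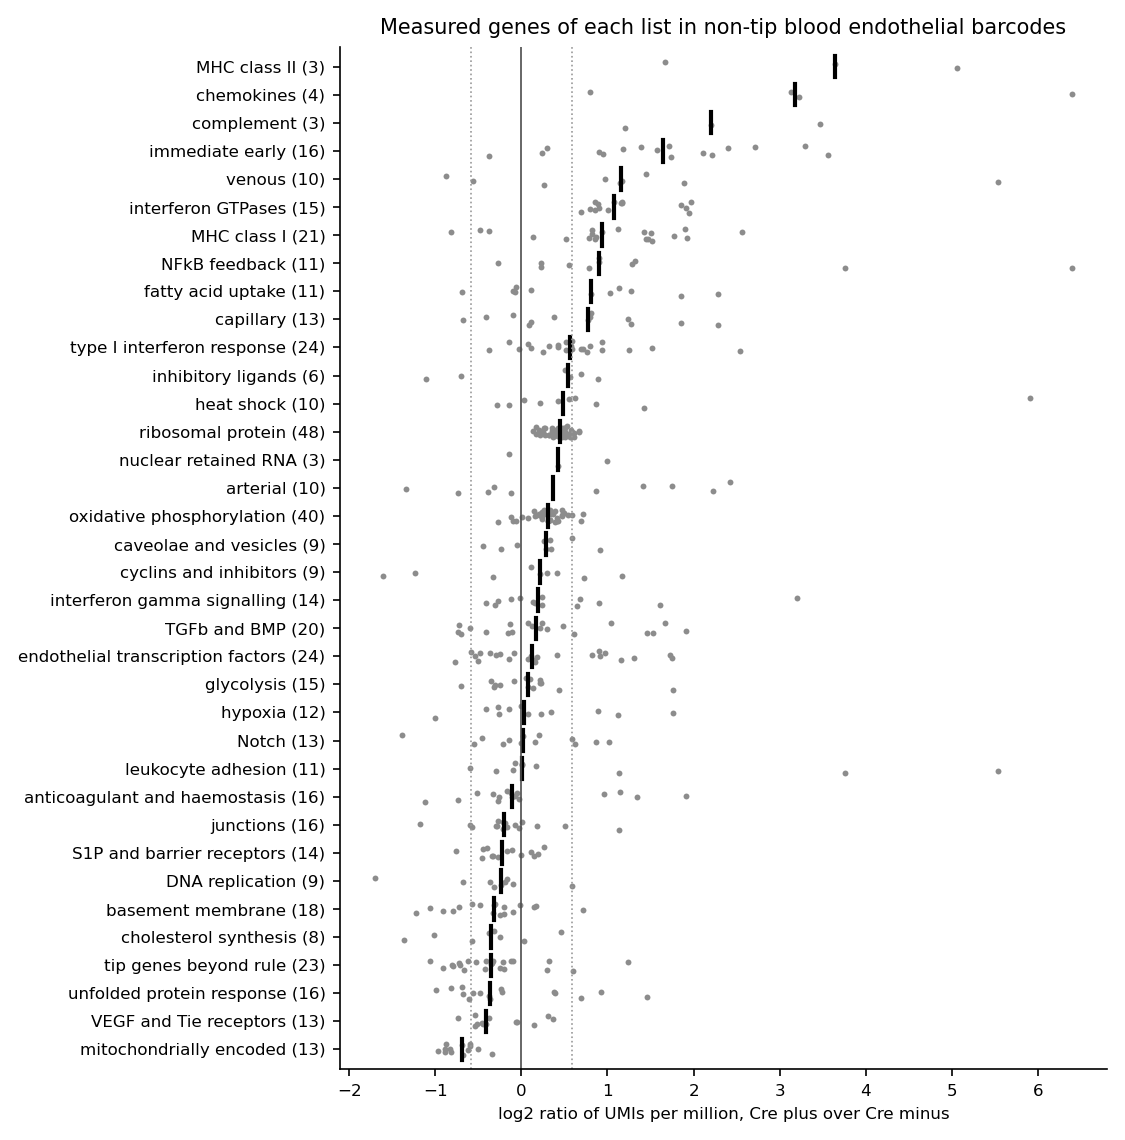
Log2 ratio of Cre plus over Cre minus of every measured gene of each list with at least 3 measured genes in the non-tip members (points), with the list's median as a bar and dotted lines at 1.5-fold. Vcam1, at 0 UMIs in Cre minus, has no point. The medians run from 3.65 for the class II genes and 1.07 for the interferon GTPases to -0.69 for the mitochondrially encoded genes.

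Vessel identity genes were next. Of 10 measured venous genes, 7 were over 1.5-fold higher and 1 lower, with a median of 1.16. Beside Selp and Vcam1 these were Lrg1, with 302 UMIs against 83 (1.45 [1.1, 1.82]), Tmem252, with 221 and 45 (1.88 [1.42, 2.38]), Il6st, the shared receptor chain of the interleukin-6 family, with 188 and 63 (1.17), Vwf, and Nr2f2, the transcription factor of venous fate, with 162 and 62 (0.97 [0.54, 1.42]). Emp1, the most abundant of the list, had 459 and 511 UMIs, -0.57 [-0.75, -0.38]. Vwf, the clotting protein of larger vessels, went from 1.15 to 0.48 without 1 barcode. In thinned barcodes the venous median was -0.58, where few of the list's genes reach 50 UMIs. Ackr1, a marker of postcapillary venules, had 13 and 0 UMIs, too few to describe.

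Arterial genes parted in direction. Gja4, the gap junction protein connexin 37, had 221 UMIs in 23 Cre plus members and 31 UMIs in 13 Cre minus members, 171 CPM against 31.9 CPM, a log2 ratio of 2.42 [1.88, 3.01]. Its richest barcode held 55 of them, and without it the ratio was 2.03. Sox17, a transcription factor of arterial endothelium, had 188 and 42 UMIs, 1.75 [1.26, 2.27], and Fbln5, an elastic fibre protein, 187 and 30, 2.23 [1.67, 2.84]. One Cre plus barcode held 79 of the 187 Fbln5 UMIs. Fbln5 was detected in 32.5% and 8.05% of members (17.3% and 4.71% thinned). In melanoma-panel barcodes it was detected in 66.0% and 68.6% (22.9% and 23.5% thinned). Hey1, a Notch target, stood at 0.86 [0.24, 1.52]. Dkk2, a Wnt regulator, had 121 and 231 UMIs, -1.34 [-1.67, -1.02], and Efnb2, the classical arterial ephrin, 453 and 423 UMIs, -0.31 [-0.51, -0.12]. Of 10 measured arterial genes 5 were higher and 2 lower, and the median was 0.37, which turned to -0.56 in barcodes thinned to 2000 UMIs. Gja5, under the minimum of 50 UMIs, had 10 and 36 UMIs, lower in Cre plus, and 19 of the 36 lay in 1 barcode. Of the 23 Cre plus members with Gja4, 15 had Hey1, 20 had Cd36 and 1 of the 11 Selp-bearing members was among them. Over all 83 Cre plus members, Hey1 was found in 27 and Cd36 in 60. The Gja4-bearing members had a median of 12253 UMIs and the others 8822.

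Capillary genes and fatty acid handling genes had medians of 0.78 and 0.80, with 7 of 13 and 6 of 11 over 1.5-fold higher and 1 lower in each list. These lists share genes, Fabp4 and Tcf15 among them, so their values are not separate results. Fabp4 had 11539 UMIs in 79 Cre plus members and 3595 in 79 Cre minus members, 1.27 [1.22, 1.33], so nearly all members of both libraries had it and its level differed. Cd36, the fatty acid translocase, had 1248 and 538 UMIs, 0.80 [0.66, 0.95], and Rgcc 988 and 314, 1.24 [1.06, 1.43]. Tcf15, a transcription factor that drives fatty acid uptake genes, had 110 and 17 UMIs, 2.28 [1.54, 3.11]. Aqp7, a glycerol channel, had 53 and 11, 1.86 [0.90, 2.94]. Kdr, the main VEGF-A receptor, stood at -0.41 [-0.53, -0.29] and Btnl9 at -0.68 [-0.88, -0.48]. The fatty acid median was 0.02 in members with under 0.1% Malat1. The capillary median lay between 0.38, for genes with at least 200 UMIs, and 0.93 over 16 alternatives. It was 0.47 without each gene's richest barcode and 0.45 relative to genes of like span, both within 1.5-fold.

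**Figure D4:**
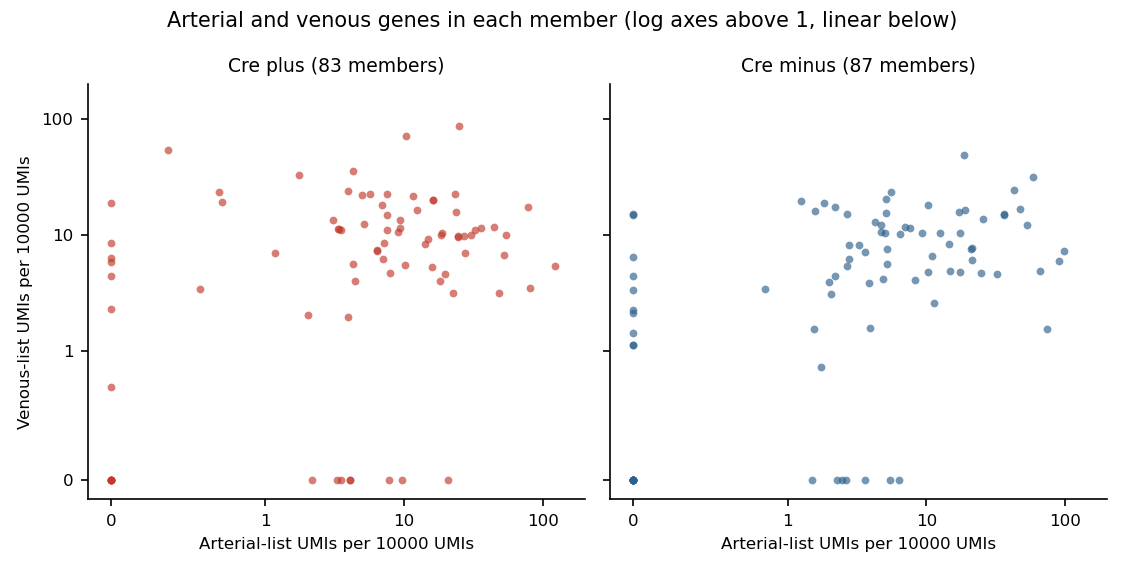
Summed UMIs of the venous list (vertical) against those of the arterial list (horizontal), each per 10000 UMIs of the barcode, for every non-tip member (1 point per barcode, 1 panel per library, axes logarithmic above 1 and linear below). Medians were 7.12 and 4.69 for arterial and 8.60 and 5.94 for venous genes in Cre plus and Cre minus, and the libraries overlap throughout.

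Among 24 endothelial transcription factors 8 were over 1.5-fold higher and 1 lower, with a median of 0.13. Klf2, induced by blood flow, had 329 and 75 UMIs, 1.72 [1.36, 2.10], and Klf4 152 and 46, 1.31 [0.83, 1.82]. Sox18 had 764 and 258 UMIs, 1.15 [0.95, 1.36]. The Id genes, targets of BMP signals, were alike: Id1 had 826 and 226 UMIs, 1.46 [1.24, 1.68], Id2 59 and 14, 1.66 [0.81, 2.62], and Id3 1124 and 293, 1.53 [1.34, 1.72]. The whole TGF-β and BMP list had a median of 0.17 with 6 of 20 higher and 4 lower, the latter Smad2, Smad3, Smad5 and Tgfbr1.

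Immediate-early genes, which cells induce within minutes of a stimulus and also during tissue digestion, had the highest median of lists with at least 10 measured genes, 1.64, with 13 of 16 over 1.5-fold higher. Atf3 had 117 UMIs in 21 members and 9 UMIs in 4, 3.29 [2.32, 4.45], Fos 117 and 19 UMIs, 2.21 [1.5, 2.99], and Egr1 stood at 2.11. In tip-like and lymphatic-panel barcodes the medians of this list were 0.71 and 1.23. Of 10 heat shock genes 4 were higher, with a median of 0.48. NF-κB feedback genes had 7 of 11 higher and a median of 0.90, which was 0.47 without each gene's richest barcode, and Nfkbia, the inhibitor that NF-κB induces, had 295 and 89 UMIs, 1.32 [0.97, 1.68]. All 3 measured complement genes were over 1.5-fold higher, among them Serping1, the C1 inhibitor, with 59 and 4 UMIs, 3.47 [2.04, 5.39].

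Fewer of the lists were lower in the Cre plus members. Of 18 basement membrane genes 5 were over 1.5-fold lower and 1 higher, with a median of -0.31. Lama4, a laminin chain of endothelium, had 697 and 1225 UMIs, -1.22 [-1.36, -1.09], Lamc1 759 and 1187, -1.06 [-1.19, -0.92], and Nid1, which links laminin to collagen, 645 and 915, -0.92 [-1.06, -0.77]. Col4a1 and Col4a2, in contrast, stood at -0.20 and -0.10. Ednrb, an endothelin receptor, had 660 and 1038 UMIs, -1.06 [-1.21, -0.92]. Of 23 tip genes beyond the rule 8 were lower and 2 higher, with a median of -0.35. In members with under 0.1% Malat1 both medians turned, to 0.71 for the basement membrane and 0.27 for the tip genes. Tip share, the value that chose the members, had a median of 0.038% in Cre plus and 0.092% in Cre minus members. How far this difference in the selection value entered the tip and basement membrane ratios was not tested. Among 13 VEGF and Tie receptor genes only Vegfc, a ligand listed with them, was past 1.5-fold, at -0.74. Flt1, a VEGF-A receptor that belongs to the rule and not to that list, was also past it, at -0.65 [-0.73, -0.57]. The 16 junction genes had a median of -0.20.

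The genes with the lowest ratios by the rule for single genes were of mixed function. Robo1, a receptor for Slit guidance proteins, had 166 UMIs in 17 Cre plus members and 643 UMIs in 38 Cre minus members, 128 CPM against 661 CPM, a log2 ratio of -2.36 [-2.62, -2.12]. Ptn, the secreted growth factor pleiotrophin, had 253 UMIs in 9 members and 751 UMIs in 41, -1.98 [-2.19, -1.77]. It was detected in 10.8% [5.08, 19.6] and 47.1% [36.3, 58.1] of members (8% and 36.5% thinned), against 0.382% and 1.79% of melanoma-panel barcodes. In tip-like barcodes the shares with Ptn were 47.2% and 52.0%, so the low share stood in the non-tip Cre plus members. Taco1, an activator of mitochondrial translation, had 18 and 141 UMIs, -3.38 [-4.18, -2.67], and Dync1i1, a dynein chain, 17 and 109, -3.09 [-3.92, -2.35]. The potassium channel genes Kcnj2, with 35 and 109 UMIs, and Kcnq1, with 119 and 298, stood at -2.05 [-2.64, -1.49] and -1.74 [-2.05, -1.42]. Sntb1, a syntrophin, Fmn1, a formin, the RNA-binding Celf4 and Cmss1 stood at -2.75, -2.11, -1.77 and -1.53. Gm42418, the gene model that overlaps ribosomal RNA sequence, stood at -1.51. In tip-like barcodes Cmss1 stood at -1.01 and Gm42418 at -1.21. In blood endothelial barcodes with 3 or more cycling genes, called cycling below, these 2 genes stood at 0.19 and 0.07. Whether they share a source was not tested. Several of these genes are long: Robo1 spans chr16:72308306-73046095 and Fmn1 chr2:113327736-113716767.

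Of the genes with the highest ratios by the same rule, Akr1b3, aldose reductase, and Mctp1 remain. Akr1b3 had 836 and 54 UMIs, 3.54 [3.14, 3.97], but 770 of the 836 lay in 1 barcode, and without it the ratio was -0.09. The same barcode, of 30225 UMIs, held 582 of 601 Spp1, 154 of 154 Cryab and 217 of 234 Nupr1 UMIs of the Cre plus members. Mctp1 had 183 UMIs in 11 members and 11 UMIs in 5, 3.65 [2.77, 4.67], and 2.77 without its richest barcode.

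The same comparison in other endothelial barcodes of these 2 libraries gave partly like and partly opposite values, and none of the differences was tested. In tip-like barcodes, where 9.05% of 6562 measured genes were over 1.5-fold higher and 6.8% lower, the GTPases had a median of 1.5 with 8 of 9 higher, and the MHC class I genes 0.63. Arterial genes there had a median of -0.45, with none higher and 4 lower, and Gja4, with 51 and 81 UMIs, stood at -0.95. In lymphatic-panel barcodes, where 23.9% of 10344 measured genes were higher and 3% lower, the GTPases had a median of -0.91 with 9 of 15 lower. The MHC class I genes stood at -0.28. Cxcl9 had 4 UMIs in 583 Cre plus and 238 UMIs in 179 Cre minus lymphatic barcodes, a log2 ratio of -8.65, against 3.13 in the non-tip members. Cycling blood endothelial barcodes numbered 38 in Cre plus and 31 in Cre minus. There Gja4 stood at 1.83, Fabp4 at 1.15 and Iigp1 at 0.62, like in direction to the members. Cxcl9, however, stood at -0.09 [-0.35, 0.17], Ifngr1 at 0.11 [-0.20, 0.43] and Robo1 at 0.65 [0.36, 0.95].

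Non-tip and tip-like barcodes were then set side by side within each library. The split used tip genes of the same cells, so these ratios describe the members and test nothing. Of 5920 genes with at least 50 UMIs in each library, 196 (3.31%) were over 1.5-fold higher in the non-tip members in both libraries and 173 (2.92%) lower in both. Within Cre plus alone 8.85% were higher and 10.4% lower, and within Cre minus alone 10.5% and 8.16%. The tip-like barcodes had median depths of 15066.5 and 11304 UMIs. Log2 ratios in this comparison are non-tip over tip-like, with Cre plus first.

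The genes named on the higher side of this comparison follow the rule for single genes and, after them, the venous list. Tek, the angiopoietin receptor TIE2, had 219 UMIs in non-tip and 53 in tip-like barcodes of Cre plus, and 226 and 47 in Cre minus, that is 2.15 [1.72, 2.62] and 2.50 [2.05, 2.99]. Tgfbr3, the TGF-β co-receptor betaglycan, had 179 and 21 UMIs in Cre plus and 96 and 10 in Cre minus, 3.20 and 3.50. Prcp, a carboxypeptidase, stood at 2.44 and 2.46, Slc6a6, the taurine transporter, at 5.82 and 2.48, and Ablim3, an actin-binding protein, at 4.25 and 2.34. Stox2 stood at 2.84 and 1.97, Ccdc85a at 3.38 and 2.15, and Iigp1 at 1.5 and 1.62. Of the 219 Iigp1 UMIs of the Cre minus non-tip members, 111 lay in 1 barcode. Of 7 measured venous genes 4 were higher in both: Lrg1 with 4.26 and 3.03, Nr2f2 with 1.75 and 1.44, Il6st with 1.83 and 0.79, and Ephb4, the venous ephrin receptor, with 1.02 and 0.92. The flow-induced Klf4 stood at 2.66 and 2.30 and Klf2 at 2.01 and 1.04.

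The same rule gave the genes named on the lower side. Adm, the vasoactive peptide adrenomedullin, had 17 UMIs in non-tip and 265 in tip-like barcodes of Cre plus, and 19 and 187 in Cre minus, -3.85 [-4.66, -3.15] and -3.06 [-3.82, -2.38]. Cxcr4, the CXCL12 receptor of tip cells, stood at -1.82 and -2.17, and Angptl4 at -1.71 and -1.92. The matrix proteins Ccn2 and Thbs1 stood at -2.99 and -2.22 and at -2.77 and -2.24. Kcnj8, a subunit of ATP-sensitive potassium channels, stood at -2.86 and -1.95, the protease Prss23 at -1.97 and -2.32, and Gzmk, a granzyme better known from T cells, at -2.33 and -2.25. Of 24 measured tip genes that the rule did not use, 10 were lower in both libraries and none higher, with medians of -0.84 and -0.48. Dll4, the Notch ligand of tip cells, was among them with -0.99 and -1.19.

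Summed levels of interferon-induced genes also differed between the 2 kinds of blood endothelium. Of 10 measured GTPases 7 were higher in the non-tip members of both libraries and none lower, with medians of 1.09 and 1.41 against -0.03 and 0.04 for all genes. Gbp2 stood at 1.12 and 1.78. Of 18 type I interferon response genes 9 were higher in both. Of 20 MHC class I genes 2 were, with medians of 0.47 and 0.06. Of 2 measured chemokines 1 was higher in both, while Cxcl9 went the other way in both. In Cre plus it stood at 798 CPM in non-tip and 1038 CPM in tip-like barcodes, and in Cre minus at 91.5 and 292 CPM. The vessel genes Gja4 and Sox17 differed in opposite directions in the 2 libraries. Gja4 stood at 2.22 [1.78, 2.69] within Cre plus but at -1.15 [-1.79, -0.53] within Cre minus. Sox17 stood at 0.89 and -0.88. Fabp4, higher within Cre plus only, stood at 1.00 and -0.01, and Cd36, higher in both, at 2.35 and 1.22. These ratios share their non-tip sums with the comparison between genotypes, and the difference between libraries was not tested.

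**Figure D5:**
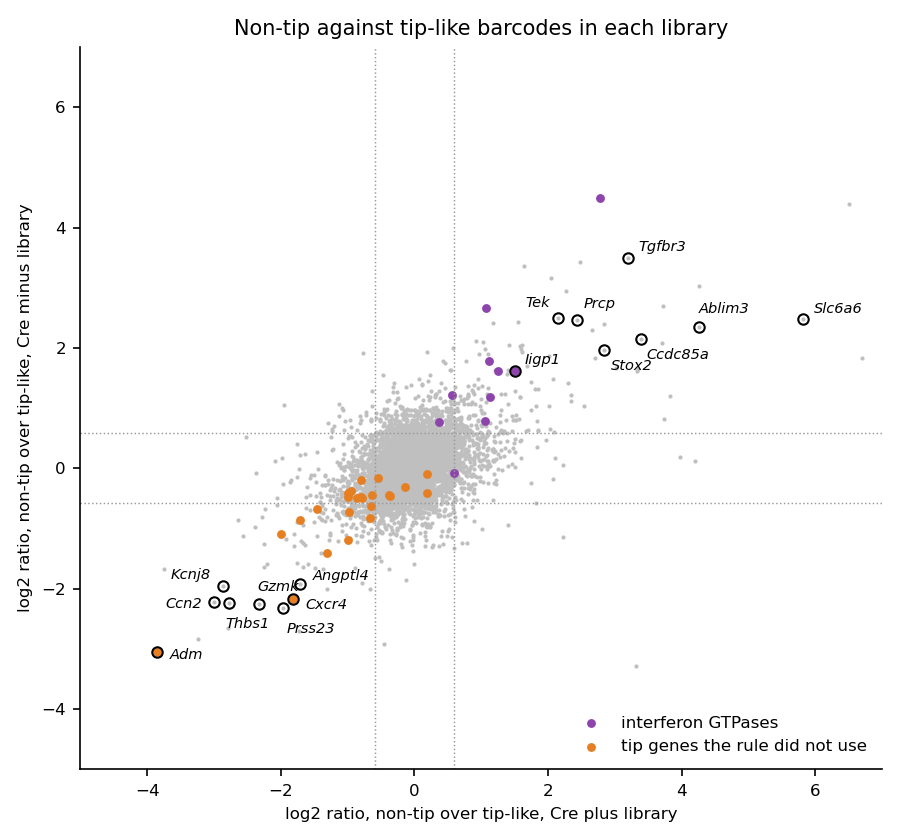
Log2 ratio of non-tip over tip-like barcodes in Cre minus against that in Cre plus for 5919 genes (1 point per gene), with the named genes labelled, GTPases and tip genes coloured and dotted lines at 1.5-fold. Tek and Tgfbr3 lie high in both libraries, and Adm and Ccn2 low in both. S100a4, at 0 in tip-like Cre plus barcodes, is not drawn.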

How the data were processed

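Single-cell 3′ RNA libraries (kit v3.1) came from 3 pooled tumors of each of 2 genotypes. The deposited matrices hold raw counts, whole-number UMIs per gene and barcode, for 32285 gene entries per the file headers. Alignment and counting were done with Cell Ranger 7.0.0 on mm10, per the submitters' processing notes. The gene models and the read-strand setting are not given in the sources used here. Of 32245 symbols, 38 were shared by several entries, whose UMIs were summed. Positions come from GENCODE M21, matched for 99.8% of symbols, and promoters from RefSeq.

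A barcode was kept with 500 genes or more and a mitochondrial share under 10%, and no doublet caller was run. The members, the gene lists and the settings were chosen with earlier results of these data known, so that no pattern here is independent support. UMIs were summed over members per library and scaled to 1000000 (CPM). Ratios of 2 sums have exact conditional binomial 95% intervals, shares exact Clopper-Pearson intervals and levels exact Poisson intervals. These cover counting error only, and UMI sums of the members were 1294213 and 973203. A gene was measured with at least 50 UMIs over both libraries and counted as higher or lower past 1.5-fold. Thinned shares use 2000 UMIs per barcode, leaving out 8 Cre plus and 2 Cre minus members. A count of 0 was set to a floor of 3 counts per library for a fold.

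Named genes are Ifngr1 and Prox1, and the 10 highest and 10 lowest ranked by the bound of the interval that lies closer to 0, with a minimum of 100 UMIs and detection in 10% of the members of 1 library. For non-tip over tip-like the 8 highest and 8 lowest by the nearer bound in both libraries were taken. Not eligible were genes of the selection rule, unnamed, Y-linked, haemoglobin, ribosomal-protein, mitochondrial and X-inactivation genes, and 29 genes under 10% of their level in melanoma, macrophage or stromal barcodes. Up to 4 members of each list described are with at least 50 UMIs and an interval off 0 are named by size of the log2 ratio, and further ones were chosen after their values were seen. The interval calculation was tested on simulated independent Poisson counts. These hold no clumping of UMIs in single barcodes, so the simulation checks the calculation and not the fit of the intervals to these data. Alternatives covered the barcode filter, panel minimum and purity, cycling rule, tip split, scaling, weight of barcodes, depth, Malat1 and the UMI minimum. Python 3.11.15, numpy 2.4.6, scipy 1.17.1, pandas 2.3.3 and matplotlib 3.10.9 were used.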

Additional observations from a re-analysis of the deposited data

Results flagged for a closer look

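The ratio of Cre plus over Cre minus lay past 1.5-fold in 1 direction in the non-tip members for the 9 results below. In lymphatic-panel or tip-like barcodes, the 2 classes searched, it lay past 1.5-fold in the other direction, and in none was the difference tested. Cycling blood endothelial barcodes were not searched. There Robo1 stood at 0.65, Kcnj2 at 0.93 and Akr1b3, whose 3.54 in the members rests on 1 barcode, at -0.60. Against lymphatic-panel barcodes, the interferon GTPases had a median log2 ratio of 1.07 in the members and -0.91 there (15 measured genes in each). The MHC class II genes had 3.65 over 3 genes and -1.18 over 5 genes, the former including Cd74, of whose 222 Cre plus UMIs 207 lay in 3 barcodes, and the chemokines 3.17 and -4.01 over 4 genes each. Cxcl9 stood at 3.13 and -8.65, Iigp1 at 1.95 and -1.47, and Ifngr1 at 0.90 and -0.69. In the reverse direction, Robo1 stood at -2.36 in the members and 2.10 in lymphatic-panel barcodes, and Kcnj2 at -2.05 and 4.03, the latter from 110 and 1 UMIs. Against tip-like blood endothelial barcodes, Gja4 stood at 2.42 in the members and -0.95. With 1 library per genotype these are values of 2 libraries, in which lymphatic-panel barcodes numbered 583 in Cre plus and 179 in Cre minus.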

How the results depend on the processing

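No paired analysis was possible because each genotype had 1 library. Beside 13 alternative settings, 4 were added after seeing the data (leaving out a haemoglobin-rich member, members with UMIs of another panel or each gene's largest barcode, and comparing genes of like span), and 4 values past 1.5-fold changed sign. Akr1b3 went to -0.19 with the blood panel at 4 times each other panel, to -0.43 without members with 5 or more UMIs of another panel, and to -0.088 without its largest barcode. The venous median went to -0.58 in barcodes thinned to 2000 UMIs. The Cre minus members numbered 67 under 5% mitochondrial UMIs, and also 67 without members with UMIs of another panel. Higher and lower genes numbered 55 and 120 with under 0.1% Malat1, 233 and 309 with at least 200 UMIs per gene, 126 and 194 after thinning, and 539 and 540 without members with UMIs of another panel, where fewer genes or barcodes entered. Ifngr1 stood at 0.56 as a mean over barcodes and 0.18 with under 0.1% Malat1. MHC class I stood at 0.57 with under 0.1% Malat1 and at 0.61 relative to genes of like span. The GTPase median was 2.62 after thinning, where Iigp1 alone was measured. With under 0.1% Malat1 no GTPase was measured. Thinning before the split left 982 measured genes, of which 48 were higher and 45 lower in the non-tip members of both libraries. The GTPase median lay between 0.92 and 2.62 over 15 alternatives, MHC class I between 0.57 and 1.14 over 16, and the immediate-early median between 1.07 and 1.74 over 15. Medians within 1.5-fold also changed sign under at least 1 setting in 18 of the 36 lists, among them arterial genes (0.37 to -0.56 after thinning) and, with under 0.1% Malat1, basement membrane (-0.31 to 0.71), VEGF and Tie receptors (-0.41 to 1.01), unfolded protein response (-0.37 to 0.74) and heat shock genes (0.48 to -0.41). The cause of these shifts was not tested beyond the smaller number of genes and barcodes. No deviation between animals can be estimated from 1 library per genotype.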
